A study of Homo sapiens with 9 samples.

Results

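Oxidative phosphorylation is the pathway by which mitochondria turn the electrons of nutrients into ATP. The nuclear genes of its subunits were described here by complex in RNA-sequencing data of libraries labelled as MDA-MB-231, an established human cell line of basal, triple-negative breast cancer. A gene was a member if its symbol was that of a nuclear-encoded subunit of complex I (NDUFA, NDUFB, NDUFC, NDUFS and NDUFV), complex II (SDHA to SDHD), complex III (UQCR), complex IV (COX4I to COX8) or complex V (ATP5F, ATP5M and ATP5P), with pseudogenes left out. Of the 60708 genes in the files, 84 were members. By symbol, 37 were placed in complex I, 4 in complex II, 8 in complex III, 17 in complex IV and 18 in complex V. The rule used symbols alone and no measured value. This holds for the complex too, so NDUFA4 was counted under complex I by its symbol only.

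Complexes I to IV form the electron transport chain of the inner mitochondrial membrane. Electrons enter from NADH at complex I or from succinate at complex II and pass through complex III and cytochrome c to oxygen at complex IV, while complexes I, III and IV pump protons. Complex V, the ATP synthase, lets the protons flow back and makes ATP. Most subunits are encoded in the nucleus and imported, and a small set is encoded by the mitochondrial genome. Several subunits of complex IV exist as isoforms from separate genes, with forms that are typical of heart and skeletal muscle or of testis. The factors NRF1, GABPA and YY1 are known to bind promoters of many of these genes.

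The series held 9 libraries labelled as untreated MDA-MB-231 cells, with 3 of wild type (WT) and 3 of each of the clones CS16 and CS19, both of genotype SNAI1-KO. The study made them by co-transfecting a pool of CRISPR/Cas9 plasmids against SNAI1, which encodes a transcriptional repressor of epithelial genes, with repair plasmids, selecting with puromycin and expanding single cells, so each clone stands for 1 cell's descendants. Nothing in the labels says that the 3 libraries of a group came from separate cultures, so p-values measure the spread between libraries, which may be technical. Libraries held between 19527195 and 28627777 counted read pairs, and intervals and limits from counts cover counting error only.

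The libraries were checked against their labels. SNAI1 lay between 0.463 and 1.27 FPKM in WT and between 0.747 and 2.39 FPKM in SNAI1-KO, a difference of 0.89 ± 0.42 (log2, SE) with an adjusted p of 0.0838 (1.40 without WT-2, adjusted p = 0.0146), though a count over the whole gene does not show a change within an exon. The study reported less SNAI1 mRNA at each exon by RT-qPCR, no detectable protein in the clones and deletions within the gene. The counts here did not show that fall in mRNA. CDKN2A, CDKN2B and MTAP, neighbours on the short arm of chromosome 9, had 0 counts in the 3 WT libraries, and CDKN2A lay between 13.3 and 15.6 FPKM in the SNAI1-KO libraries. The CDKN2A locus is known to be lost in MDA-MB-231. All 10 mesenchymal markers of MDA-MB-231 were lower in SNAI1-KO, with a summed level of 2141 to 2536 FPKM in WT and 68.9 to 84.0 FPKM in SNAI1-KO, and CD44 was at 0 in 5 of the 6 SNAI1-KO libraries. Of the 12 markers of embryonic kidney and neural progenitors, 9 were higher and 1, PAX8, was lower, with summed levels of 9.86 to 12.3 FPKM in WT and 76.7 to 109.99 FPKM in SNAI1-KO. SALL1, LIN28B, NEFL and NEFM were at 0 in the 3 WT libraries. The 6 SNAI1-KO libraries thus went against markers of the labelled cell line. WT and SNAI1-KO name the labels throughout, and what part this difference in identity had in the results was not tested. In such bulk samples, fewer cells of a type and less RNA per cell cannot be told apart.

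Among the WT libraries WT-2 differed most, and the members moved with it. Over the 79 members that passed the filter on low counts, the median log2 difference of WT-2 from the mean of WT-1 and WT-3 was -1.18, beside 0.00 over 19622 genes tested. Of these members, 66 were lower in WT-2, 44 of them by more than 1 on the log2 scale, and 13 were higher. The difference rose with the GC content of the exons, with Pearson's r of 0.69 across the members and 0.64 across all genes tested, a description across genes that share these libraries. The members' median GC content of 47.1% was close to the 47.6% of all genes tested. Between the 5th and 95th percentile of the members' GC content, 38.5% and 62.4%, lay 16453 genes tested. Their median difference was 0.02, beside -1.18 for the members. The cause of the members' lower level in WT-2 was not tested. The level of NDUFA5 in WT-2 was 0.154 of the mean of the other WT libraries and that of SDHD was 0.136 of it, while ATP5F1D, a subunit of the central stalk of ATP synthase, was 4.83-fold higher. The members took 0.728%, 0.38% and 0.835% of all counts in WT-1, WT-2 and WT-3, between 1.1% and 1.24% in CS16 and between 1.02% and 1.08% in CS19. Counts of members and lists against WT are given with and without WT-2, as are most single values of members. Single values of other genes include WT-2 unless stated.

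Promoters were read from RefSeq (GRCh38.p14) as 250 bases before to 50 bases after the start, and 68 of the 84 members had an entry. The motifs GCGCANGCG for NRF1, CCGGAAG for GABPA, ATGGCGGC for YY1 and CAGGTG for the E-box that SNAI1 binds were searched on both strands, and none of the 4 contains another. The NRF1 motif was in 23 of 68 members (33.8%), beside 9.02% of 27305 genes. The GABPA motif was in 21 members (30.9%), beside 12.2% of all genes, and the YY1 motif in 12 members (17.6%), beside 3.67%. The E-box was in 15 members (22.1%), beside 24.1% of all genes. At least 1 of the NRF1, GABPA and YY1 motifs was found in 43 of the 68, a count for which the share of all genes was not taken. The next lines show promoters from 5′ to 3′ of members that results below turn on, with NRF1, GABPA and YY1 motifs in capitals. They are the promoter of NDUFB10, one of the members with the largest rise (chr16:1959288-1959587, plus strand), which held none of the 3 motifs in this window, that of ATP5PF, which held an NRF1 and a GABPA motif and whose exons overlap those of GABPA itself (chr21:25735005-25735304, minus strand), that of ATP5PO with an NRF1 motif (chr21:33915755-33916054, minus strand) and that of NDUFS4, a member that fell, with a YY1 motif (chr5:53560389-53560688, plus strand).
NDUFB10: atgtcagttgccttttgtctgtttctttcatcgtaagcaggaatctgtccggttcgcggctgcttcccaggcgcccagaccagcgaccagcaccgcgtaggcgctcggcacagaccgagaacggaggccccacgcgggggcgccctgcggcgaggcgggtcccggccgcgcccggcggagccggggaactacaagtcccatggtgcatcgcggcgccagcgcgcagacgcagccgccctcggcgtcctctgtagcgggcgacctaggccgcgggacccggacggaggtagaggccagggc
ATP5PF: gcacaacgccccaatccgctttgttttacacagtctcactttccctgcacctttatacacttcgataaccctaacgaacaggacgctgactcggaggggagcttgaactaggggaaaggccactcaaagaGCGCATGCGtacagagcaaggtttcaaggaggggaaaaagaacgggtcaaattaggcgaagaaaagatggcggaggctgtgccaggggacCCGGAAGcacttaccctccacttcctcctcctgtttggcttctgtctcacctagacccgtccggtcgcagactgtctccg
ATP5PO: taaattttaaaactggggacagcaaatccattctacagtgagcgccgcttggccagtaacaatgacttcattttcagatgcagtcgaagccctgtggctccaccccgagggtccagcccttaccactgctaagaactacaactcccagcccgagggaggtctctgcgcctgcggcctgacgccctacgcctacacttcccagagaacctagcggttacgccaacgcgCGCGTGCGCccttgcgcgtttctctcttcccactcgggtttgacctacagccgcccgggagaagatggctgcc
NDUFS4: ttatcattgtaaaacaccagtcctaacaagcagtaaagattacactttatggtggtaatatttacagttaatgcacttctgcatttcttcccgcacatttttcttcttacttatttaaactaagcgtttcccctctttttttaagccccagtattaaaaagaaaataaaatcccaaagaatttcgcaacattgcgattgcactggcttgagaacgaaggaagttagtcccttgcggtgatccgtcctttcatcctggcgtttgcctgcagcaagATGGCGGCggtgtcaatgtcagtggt
A match is a description of these letters and not a measured site.

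The study compared SNAI1-KO with WT cells, and 79 of the 84 members passed the filter on low counts in this comparison. A member passed the test when edgeR's adjusted p over all 19631 genes tested was below 0.05. Of the 79 members, 33 were higher in SNAI1-KO (41.8%) and 5 were lower (6.33%), while 31.1% of all genes tested were higher and 32.6% lower. The median log2 fold change was 0.54 over the members and -0.00 over all genes tested. Without WT-2, 38 members were higher and 10 lower, 32 of the former and 5 of the latter being those that passed with all libraries, beside 34.0% and 33.2% of all genes tested. The members' median was then 0.36, and that of all genes was 0.04. The 6 SNAI1-KO libraries lay above the 3 WT libraries for 35 of the 79 members and below them for 3, and the same was so for 29.7% and 28.7% of all genes tested. When the fold cut-off of the study was added, which asks for an absolute log2 change of 2 or more, 2 members were called, both higher, beside 12.6% of all genes higher and 14.3% lower.

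**Figure D1:**
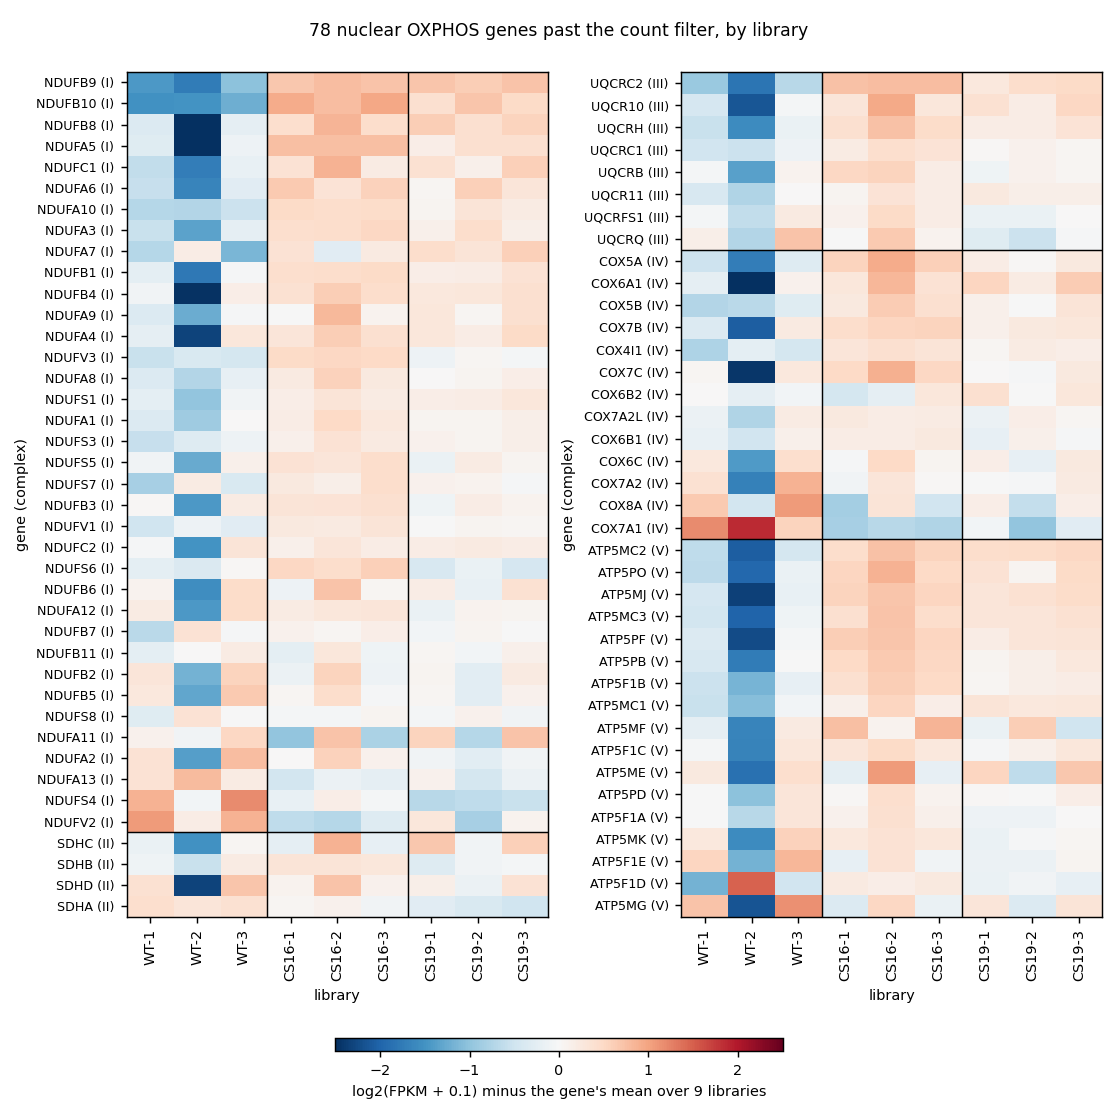
Level of 78 of the 79 members past the filter (rows, grouped by complex) in the 9 libraries (columns), as log2(FPKM + 0.1) minus the gene's mean over the libraries. WT-2 is the darkest blue column for most genes, and NDUFB9 and NDUFB10 are blue in all 3 WT libraries and red in the 6 SNAI1-KO libraries.

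By complex, the higher members were 17 of 37 in complex I, 0 of 4 in complex II, 5 of 8 in complex III, 3 of 13 tested in complex IV and 8 of 17 tested in complex V. The lower ones were 3, 1, 0, 1 and 0. The median log2 fold changes were 0.51, 0.20, 0.56, 0.34 and 0.72 from complex I to complex V, and 0.36, -0.13, 0.43, 0.23 and 0.56 without WT-2. Complex II had no higher member with or without WT-2. Complex III and complex V had no lower member with WT-2, and complex V had 2 without it.

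**Figure D2:**
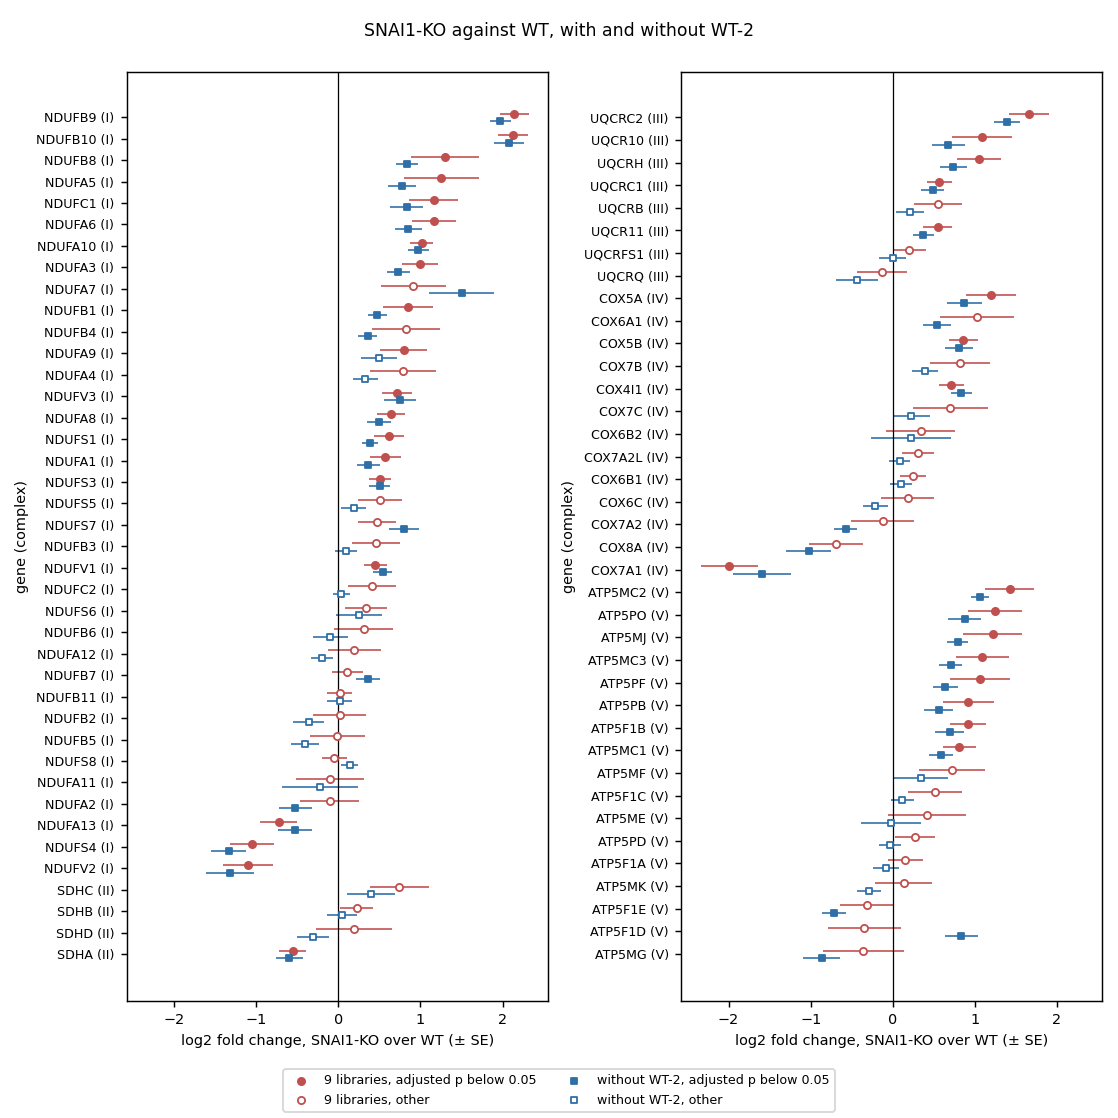
Log2 fold change of 78 of the 79 members tested in SNAI1-KO over WT with its SE, with all 9 libraries (red circles) and without WT-2 (blue squares), filled where the adjusted p was below 0.05. Errors are shorter without WT-2 for most members, and most estimates lie nearer to 0, with ATP5F1D crossing from below to above 0.

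The summed level of a complex is in TPM, counts per exon length scaled to the same sum in each library. A few genes weigh heavily in these sums. In complex I, NDUFS5 and NDUFA1 had means over the 9 libraries of 1179 and 1177 TPM. UQCRH in complex III had 624 TPM, COX8A in complex IV 710 TPM and ATP5F1B in complex V 1179 TPM. The sum of the 37 complex I genes was 5095, 3494 and 5028 TPM in WT-1 to WT-3, between 6514 and 7649 TPM in CS16 and between 5334 and 6483 TPM in CS19. All 6 SNAI1-KO libraries lay above the WT libraries, with a ratio of the means of 1.42, or 1.27 without WT-2. The groups were apart for complex III too, with 677 to 1236 TPM in WT, 1843 to 2015 TPM in CS16 and 1477 to 1614 TPM in CS19. The ratio was 1.68 (1.43 without WT-2) for complex III and 1.53 (1.26 without WT-2) for complex V, whose sum was 1526 to 3232 TPM in WT and 3416 to 4798 TPM in SNAI1-KO. Groups overlapped for complex II and complex IV. Complex II summed to 167 to 366 TPM in WT and 311 to 424 TPM in SNAI1-KO, with a ratio of 1.00 without WT-2, and complex IV to 1472 to 3235 TPM in WT and 2693 to 3376 TPM in SNAI1-KO, with a ratio of 1.14, or 0.934 without WT-2. In CPM, which are not scaled by length, the complex IV sum was higher in the 6 SNAI1-KO libraries, at 1588 to 2038, than in WT, at 603 to 1522. The 13 protein-coding genes of the mitochondrial genome went the other way, and all 13 were lower in SNAI1-KO, with and without WT-2. Their sum was 26900 and 19637 TPM in WT-1 and WT-3, 85049 TPM in WT-2 and 9553 to 16012 TPM in SNAI1-KO. The median log2 fold change of the 13 genes was -3.44, and -1.37 without WT-2, so the size of the fall depended on that library. MT-CO1, a catalytic subunit of complex IV for which WT-2 lay between the other WT libraries, fell by 1.11 ± 0.15 (log2, adjusted p = 6.3e-05), and by 1.11 without WT-2. For MT-ND6, WT-2 was 37.6-fold above the mean of WT-1 and WT-3.

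Single members are given in FPKM, read pairs per exon length and library depth, scaled by TMM (edgeR's normalization for composition), which allows genes and libraries to be compared. The exon length covers all annotated transcripts of a gene and so lowers the level of genes with long minor transcripts, such as NDUFB9 with 16591 bases.

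In complex I, NDUFB9 and NDUFB10, accessory subunits of its membrane arm, rose most. NDUFB9 (chr8:124539101-124580648) was at 1.31, 1.04 and 1.79 FPKM in WT, 6.01, 6.43 and 6.15 FPKM in CS16 and 6.07, 5.77 and 6.16 FPKM in CS19. The difference was 2.14 ± 0.18 on the log2 scale (SE, adjusted p = 9.22e-07), or 4.41-fold, and 1.97 without WT-2. The 6 SNAI1-KO libraries were close together, and all lay above the highest WT library. NDUFB10 (chr16:1959538-1961975) was at 35.2, 35.9 and 43.1 FPKM in WT, 191, 171 and 198 FPKM in CS16 and 134, 162 and 139.8 FPKM in CS19. It rose by 2.13 ± 0.18 (adjusted p = 1e-06), and by 2.08 without WT-2, with CS16 above CS19. WT-2 lay between WT-1 and WT-3 for this gene.

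NDUFB8, another accessory subunit of the membrane arm, and NDUFA5, an accessory subunit of the arm that reaches into the matrix, were also among the members with the largest changes. NDUFB8 (chr10:100523740-100530000) was at 11, 2.09 and 12 FPKM in WT, 18.9 to 25.2 FPKM in CS16 and 18.5 to 21.6 FPKM in CS19. Its difference of 1.30 ± 0.41 (adjusted p = 0.0167) was 0.84 without WT-2, and 48.5% of its exon bases are shared with 2 other annotated genes. NDUFA5 (chr7:123536997-123557904) was at 5.48, 0.902 and 6.27 FPKM in WT, 11.5, 11.6 and 11.6 FPKM in CS16 and 7.63, 9.01 and 9.07 FPKM in CS19. Its difference was 1.25 ± 0.46 (adjusted p = 0.031), and 0.77 without WT-2. For both genes WT-2 was the lowest library by far, and the groups did not overlap.

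Among core subunits of complex I, NDUFS1, NDUFS3 and NDUFV1, of which NDUFV1 binds NADH and NDUFS1 holds iron-sulfur clusters, rose by 0.62, 0.51 and 0.45 on the log2 scale, and by 0.38, 0.50 and 0.54 without WT-2. NDUFS8, a core subunit with iron-sulfur clusters, showed -0.05 ± 0.15 (adjusted p = 0.78), with overlapping groups. NDUFS7, which holds the last iron-sulfur cluster before ubiquinone, was at 0.966, 2.08 and 1.36 FPKM in WT and 1.75 to 2.48 FPKM in SNAI1-KO, and did not pass the test (0.47 ± 0.23, adjusted p = 0.0954). It passed without WT-2 (0.80, adjusted p = 0.00204), but 51.4% of its exon bases are shared with other annotated genes. NDUFS5, the member of complex I with the highest mean TPM, was at 343, 151 and 396 FPKM in WT and 324 to 490.3 FPKM in SNAI1-KO and did not pass (0.51 ± 0.26, adjusted p = 0.113). NDUFA1, close behind it with a mean of 1177 TPM against 1179 TPM, was at 288 ± 86.0 FPKM in WT (SD, n = 3) and 428 ± 50.6 FPKM in SNAI1-KO (SD, n = 6) and rose by 0.57 ± 0.19 (edgeR, adjusted p = 0.021), and by 0.36 without WT-2.

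Among the 37 genes of complex I, 3 fell. NDUFS4, an accessory subunit whose loss is known to cause Leigh syndrome, was at 56.8, 29.5 and 70.1 FPKM in WT, 27.2, 34.5 and 29.9 FPKM in CS16 and 19.0, 19.8 and 20.9 FPKM in CS19. It fell by 1.05 ± 0.27 (adjusted p = 0.00478), and by 1.34 without WT-2, the WT library that overlapped CS16. NDUFV2, a core subunit with an iron-sulfur cluster, was at 3.35, 1.77 and 2.90 FPKM in WT and 0.832 to 1.91 FPKM in SNAI1-KO, and fell by 1.1 ± 0.31 (adjusted p = 0.00836), and by 1.33 without WT-2. The pseudogene NDUFV2P1 held 23.2% of the summed counts of this gene and its pseudogene, so its level is uncertain. NDUFA13, an accessory subunit also known as GRIM-19, was at 1.64, 2.26 and 1.46 FPKM in WT and 0.887 to 1.36 FPKM in SNAI1-KO, and fell by 0.73 ± 0.22 (adjusted p = 0.0131), and by 0.53 without WT-2. Its call was lost with library size alone as the scale and with offsets for GC content.

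Complex II oxidizes succinate and is also an enzyme of the tricarboxylic acid cycle. SDHA, its flavoprotein, was at 4.80, 4.40 and 4.68 FPKM in WT, 3.66, 3.82 and 3.35 FPKM in CS16 and 2.91, 2.7 and 2.48 FPKM in CS19. It fell by 0.56 ± 0.16 (adjusted p = 0.0111), and by 0.60 without WT-2, the groups did not overlap and WT-2 lay with the other WT libraries. Pseudogenes of SDHA held 56.2% of the counts summed over it and them. The call was lost with library size alone and without a filter on low counts. SDHB, the iron-sulfur subunit and the member of complex II with the highest level, was at 38.3, 28.2 and 47.6 FPKM in WT, 50.4 to 52.2 FPKM in CS16 and 33.2 to 39.9 FPKM in CS19. CS19 overlapped with WT, and the difference of SNAI1-KO from WT was 0.22 ± 0.20 (adjusted p = 0.352). The membrane anchors SDHC and SDHD did not pass, with 0.74 ± 0.36 and 0.19 ± 0.46.

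In complex III, UQCRC2, one of the large core proteins, rose most. UQCRC2 (chr16:21953288-21983660) was at 20.9, 11.1 and 24.5 FPKM in WT, 65.7, 67.8 and 67.7 FPKM in CS16 and 47.8, 54.0 and 55.1 FPKM in CS19. It rose by 1.66 ± 0.24 (adjusted p = 0.0001), and by 1.39 without WT-2, with CS16, CS19 and WT each apart from the others. Its partner UQCRC1 rose by 0.57 ± 0.15 (adjusted p = 0.00643), and by 0.49 without WT-2. UQCRH, the hinge protein by cytochrome c1 and the member of complex III with the highest level, was at 127, 62.4 and 166 FPKM in WT, 245 to 311 FPKM in CS16 and 211 to 236 FPKM in CS19. It rose by 1.05 ± 0.27 (adjusted p = 0.00485), and by 0.74 without WT-2. UQCR10 and UQCR11 rose by 1.09 and 0.54, and by 0.68 and 0.37 without WT-2, and UQCRB, UQCRFS1 and UQCRQ did not pass, with differences from -0.13 to 0.55.

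Complex IV held the member that fell most, the muscle isoform COX7A1. COX7A1 (chr19:36150922-36152449) was at 2.36, 3.80 and 1.49 FPKM in WT, 0.502, 0.570 and 0.543 FPKM in CS16 and 0.931, 0.444 and 0.782 FPKM in CS19, from 17 to 39 counts per WT library and 6 to 14 counts per SNAI1-KO library. It fell by 1.99 ± 0.35 (adjusted p = 0.000415), or by 1.60 without WT-2, and no SNAI1-KO library reached the lowest WT library. Of the 6 markers of striated muscle, TNNT2 was at 0 in all 9 libraries and MYH7 and MYL2 were at or near 0, and the list's summed level was 1.74 to 2.62 FPKM in WT and 0.297 to 0.675 FPKM in SNAI1-KO. Most of the WT sum was MB, which encodes myoglobin and had 109, 58 and 93 counts in WT and 1, 0, 1, 0, 0 and 0 counts in SNAI1-KO. ACTA1 went the other way, with 2, 5 and 3 counts in WT and 14, 14, 22, 13, 5 and 12 counts in SNAI1-KO. CKM had 2, 2 and 1 counts in WT and 0 to 11 counts in SNAI1-KO. Of the 6 markers 2 passed the filter on low counts, of which 1 was lower and 1 higher in SNAI1-KO. The part of muscle genes in the COX7A1 result was not tested. COX7A2, the form of the same subunit found in most tissues, was at 86.7, 20.6 and 122 FPKM in WT and 62.9 to 82.5 FPKM in SNAI1-KO, with a difference of -0.12 ± 0.38 (adjusted p = 0.798), and fell by 0.57 without WT-2 (adjusted p = 0.00372). COX7A2L, which takes part in joining complexes III and IV, showed 0.31 ± 0.19 (adjusted p = 0.179).

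The other isoforms of complex IV were those of most tissues, and the forms typical of heart, muscle or testis were at or near 0. COX4I1 was at 26.1, 37.5 and 32.7 FPKM in WT, 55.1 to 58.3 FPKM in CS16 and 45.9 to 51.1 FPKM in CS19, and rose by 0.71 ± 0.15 (adjusted p = 0.00145), and by 0.83 without WT-2. Its paralog COX4I2 had 1 count in WT-3 and none elsewhere. COX6A1 was at 69.8, 12 and 87.7 FPKM in WT and 93.9 to 145 FPKM in SNAI1-KO, and the groups did not overlap, but the difference of 1.02 ± 0.45 did not pass (adjusted p = 0.0671). It passed without WT-2 with 0.54 (adjusted p = 0.0149). The heart and muscle form COX6A2 was at 0 in all 9 libraries, where 3 counts would have been 0.105 to 0.154 CPM.

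COX6B1 was at 100.3, 81.5 and 124 FPKM in WT and 98.0 to 135 FPKM in SNAI1-KO, and did not pass (0.25 ± 0.16, adjusted p = 0.209). The testis form COX6B2 was between 0.0527 and 0.171 FPKM in the 9 libraries and did not pass either (0.34 ± 0.42, adjusted p = 0.497). COX7B was at 37.4, 11.2 and 55.4 FPKM in WT and 51.6 to 69.4 FPKM in SNAI1-KO, with a difference of 0.82 ± 0.37 (adjusted p = 0.0705), or 0.39 without WT-2. The testis form COX7B2 had 4, 3 and 5 counts in WT and 1 count over the 6 SNAI1-KO libraries, and COX8C had 2 and 4 counts in CS19-1 and CS19-3 and none elsewhere. COX4I2, COX6A2, COX7B2, COX8C and ATP5MGL did not pass the filter on low counts and were not tested.

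COX8A, the smallest subunit's common form and the member of complex IV with the highest level, was at 334, 154 and 447 FPKM in WT, 117.6, 267.7 and 152.6 FPKM in CS16 and 238, 142 and 239 FPKM in CS19. The difference was -0.69 ± 0.33 (adjusted p = 0.0854), and COX8A fell by 1.02 without WT-2 (adjusted p = 0.00632). COX5A, a subunit on the matrix side (chr15:74919791-74938083), was at 41.6, 17.8 and 47.6 FPKM in WT, 87.5, 113.5 and 90.1 FPKM in CS16 and 68.1, 61.1 and 70.8 FPKM in CS19. It rose by 1.20 ± 0.30 (adjusted p = 0.00457), and by 0.87 without WT-2, with CS16 above CS19 and both above WT. COX5B rose by 0.86 ± 0.17 (adjusted p = 0.00101), and by 0.80 without WT-2.

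In complex V, the genes of the c-ring rose together. ATP5MC1, ATP5MC2 and ATP5MC3 encode the same mature c subunit, whose ring turns with the flow of protons, and differ in the peptide that directs import. ATP5MC2 (chr12:53632726-53677408) was at 21.2, 7.80 and 24.3 FPKM in WT, 45.0, 55.1 and 48.8 FPKM in CS16 and 44.6, 45.3 and 47.1 FPKM in CS19. It rose by 1.42 ± 0.29 (adjusted p = 0.00125), and by 1.06 without WT-2. ATP5MC3 was at 37.1, 12.7 and 46.8 FPKM in WT and 62.7 to 83.1 FPKM in SNAI1-KO and rose by 1.09 ± 0.32 (adjusted p = 0.0111), and by 0.70 without WT-2. ATP5MC1 was at 22.4, 15.7 and 31.5 FPKM in WT and 36.2 to 48.1 FPKM in SNAI1-KO and rose by 0.81 ± 0.20 (adjusted p = 0.00429), and by 0.59 without WT-2. For the 3 genes no SNAI1-KO library overlapped with WT, and none of the 3 differed between the clones beyond the test's threshold.

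Of the subunits of the peripheral stalk and of the catalytic head, some rose and others did not pass the test. ATP5PO, the stalk subunit that binds the head (chr21:33903453-33915814), was at 10.8, 4.31 and 15.3 FPKM in WT, 25, 31.5 and 24.2 FPKM in CS16 and 22, 18 and 23.8 FPKM in CS19. It rose by 1.24 ± 0.33 (adjusted p = 0.00602), and by 0.88 without WT-2. ATP5PF, another stalk subunit, rose by 1.07 ± 0.37 (adjusted p = 0.0242) and ATP5PB by 0.92 ± 0.31 (adjusted p = 0.0225), and by 0.64 and 0.56 without WT-2. The stalk subunit ATP5PD did not pass, with 0.27 ± 0.24 (adjusted p = 0.349). ATP5PF shares 34.4% of its exon bases with GABPA on the opposite strand, and strand was not used in the counting. ATP5F1B, the catalytic beta subunit and the member of complex V with the highest level, was at 249, 161 and 309.8 FPKM in WT, 476 to 549 FPKM in CS16 and 373 to 406 FPKM in CS19. It rose by 0.91 ± 0.22 (adjusted p = 0.00333), and by 0.69 without WT-2. The alpha subunit ATP5F1A and the gamma subunit ATP5F1C did not pass, with 0.15 ± 0.21 (adjusted p = 0.549) and 0.51 ± 0.32 (adjusted p = 0.186), and their groups overlapped.

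ATP5MJ, a small proteolipid that associates with the enzyme (chr14:103912288-103928269), was at 25.9, 6.76 and 30.4 FPKM in WT, 51.0, 56.3 and 50.1 FPKM in CS16 and 42.9, 44.9 and 47.7 FPKM in CS19. It rose by 1.21 ± 0.36 (adjusted p = 0.0118), and by 0.79 without WT-2. ATP5F1D was at 6.73, 42.8 and 11 FPKM in WT, 17.2 to 18.3 FPKM in CS16 and 13.3 to 14.4 FPKM in CS19, so WT-2 was the highest of all libraries and the other WT libraries the lowest. Its difference was -0.35 ± 0.44 (adjusted p = 0.512) with WT-2 and 0.83 without it (adjusted p = 0.00337). ATP5ME, a membrane subunit, was at 58.8, 13.4 and 66.1 FPKM in WT, 41.8, 103 and 42.8 FPKM in CS16 and 71.9, 31.9 and 78.4 FPKM in CS19, with a difference of 0.42 ± 0.48 (adjusted p = 0.461). MYL5, on the opposite strand, shares 61.3% of its exon bases. ATP5MGL, whose symbol marks it as like ATP5MG and which lies on another chromosome, had 5 to 10 counts per WT library and 1 to 12 per SNAI1-KO library and was not tested.

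The clones were also compared with WT in fits of their own, which share the WT libraries. In CS16, 26 of 78 members tested were higher and 3 lower, with a median of 0.68, beside 27.0% of all genes tested higher and 28.6% lower. In CS19, 16 of 78 were higher and 3 lower, with a median of 0.45, beside 26.3% and 26.6%. The 16 higher members of CS19 were all among the 26 of CS16, and 1 member, COX7A1, was lower in both. NDUFV2 and NDUFA13 were lower in CS16, and NDUFS4 and SDHA in CS19. Without WT-2 the counts were 48 higher and 9 lower in CS16, beside 36.4% and 36.3% of all genes tested, and 40 higher and 15 lower in CS19, beside 36.4% and 34.8%. Leaving out one of the other libraries gave 12 to 35 higher of 78 tested in CS16, beside 20.02% to 26.01% of all genes tested. In CS19 it gave 6 to 25 higher of 78 or 79 tested, beside 20.04% to 25.04%. The lowest counts, 12 and 6, were smaller shares than those of all genes tested.

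CS16 and CS19, both labelled SNAI1-KO, differed from each other in the members. Of 78 members tested, 34 were higher in CS16 and 0 were lower, beside 14.7% of all genes tested higher and 12.7% lower. The median was 0.20 over the members and -0.02 over all genes tested. Higher members were 13 of 37 in complex I, 2 of 4 in complex II, 6 of 8 in complex III, 5 of 12 tested in complex IV and 8 of 17 tested in complex V. The differences lay between -0.56 and 0.83 on the log2 scale. When the fit shared its spread with the WT libraries, 2 of 79 members were higher, beside 1.62% of all genes tested, so that the members' share was near that of all genes. With library size alone as the scale 19 were higher, beside 9.40% of all genes tested, and 31.45% of all calls were higher against 53.6% with TMM. Without CS19-1, 19 members were higher, beside 10.4% of all genes tested. At an unadjusted p below 0.05 edgeR also gave 0 lower members, and DESeq2 called 0 lower.

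The 5 members with the smallest adjusted p between the clones were NDUFS6, NDUFV3, NDUFS4, SDHB and NDUFA5. NDUFS6, a zinc-binding accessory subunit of complex I (chr5:1801407-1816048), was at 111.6, 104.9 and 116.8 FPKM in CS16 and 59.0, 69.3 and 58.4 FPKM in CS19, with 66.1, 60.6 and 79.5 FPKM in WT. It was 0.83 ± 0.08 higher in CS16 than in CS19 on the log2 scale (adjusted p = 4.8e-06), and CS19 lay around WT while CS16 lay above it. NDUFV3, an accessory subunit at the NADH site, was at 16.5, 17.1 and 16.8 FPKM in CS16, 10.9, 12.3 and 11.5 FPKM in CS19 and 7.99, 9.13 and 8.77 FPKM in WT. The difference was 0.53 ± 0.06 (adjusted p = 3.87e-05), with the 3 groups apart. For NDUFS4, lower in SNAI1-KO, the difference was 0.61 ± 0.09 (adjusted p = 0.000284), so that CS19 was farther from WT. SDHB differed by 0.46 ± 0.07 (adjusted p = 0.000318) and NDUFA5 by 0.43 ± 0.07 (adjusted p = 0.00048).

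The positions of the members in the genome were looked at after these values were seen. All 6 members on chromosome 5, NDUFS6, NDUFS4, COX7C, UQCRQ, SDHA and NDUFA2, were higher in CS16 than in CS19, with log2 differences of 0.38 to 0.83 and a median of 0.56. All 750 genes tested on chromosome 5 had a median of 0.44, and 58.9% of them were higher in CS16, while the medians of the other chromosomes with members lay between -0.13 and 0.13. Of the 72 members tested elsewhere, 28 were higher (38.9%) with a median of 0.19, beside 12.7% of all genes tested outside chromosome 5. The counts hold no information on copies of the chromosome. In SNAI1-KO against WT, NDUFS4 and SDHA lay on chromosome 5 and COX7A1 and NDUFA13 on chromosome 19. All genes tested there had medians of -0.21 and -0.41. NDUFV2, also lower, lay on chromosome 18, with a median of 0.15. Chromosome 11, with a median of -0.40, held 7 members and 0 lower ones. In CS19 against WT the median of chromosome 5 was -0.46. The part of position in these falls was not tested.

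Other genes of the pathway were taken as lists, whose counts stand beside the 31.1% higher and 32.6% lower of all genes tested, or 34.0% and 33.2% without WT-2. Of 13 genes of electron carriers and other subunits, 7 were higher and 0 lower in SNAI1-KO, with a median of 0.77, and the counts were 7 and 0 without WT-2, with a median of 0.51. Among them NDUFAB1, the acyl carrier protein bound to complex I, rose by 1.15 ± 0.29, ETFB, a subunit of the flavoprotein that feeds electrons from fat oxidation, by 1.13 ± 0.20, and ATP5IF1, which inhibits ATP hydrolysis by the synthase, by 0.99 ± 0.16. Of 18 complex I assembly factors, 9 were higher and 1 lower. DMAC1 was at 3.51, 2.16 and 5.55 FPKM in WT, 23.6, 28.3 and 23.2 FPKM in CS16 and 19.9, 17.8 and 21.7 FPKM in CS19. It rose by 2.58 ± 0.29 (adjusted p = 1.05e-05), and by 2.30 without WT-2. NUBPL, which delivers iron-sulfur clusters, NDUFAF4 and TIMMDC1 rose by 1.94, 1.64 and 1.62, and FOXRED1 fell by 0.49. Without WT-2, 11 of the 18 were higher and 1 lower.

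Of 10 assembly factors of complexes II and III, 3 were higher and 3 lower, shares near those of all genes tested (31.1% and 32.6%), and without WT-2 4 were higher and 4 lower. BCS1L, which inserts the Rieske protein into complex III, rose by 1.55 ± 0.14 (adjusted p = 2.51e-06), LYRM7, which also acts on the Rieske protein, by 1.5 ± 0.32 and SDHAF3 by 1.05 ± 0.34. SDHAF2, which helps to attach FAD to SDHA, fell by 1.12 ± 0.25, UQCC1 by 0.96 ± 0.13 and SDHAF4 by 0.87 ± 0.20. Of 23 assembly factors of complex IV, 22 were tested and 9 were higher and 0 lower, and without WT-2 8 were higher and 2 lower. COX15, which makes heme A, rose by 1.21 ± 0.17. Of 5 assembly factors of ATP synthase, 3 were higher and 0 lower, with a median of 1.11, and 4 were higher and 0 lower without WT-2, with a median of 0.68. ATPAF1, a chaperone of the beta subunit, was at 7.80, 6.03 and 9.21 FPKM in WT and 21.4 to 30.02 FPKM in SNAI1-KO, a rise of 1.74 ± 0.18 (adjusted p = 4.87e-06).

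Of 17 regulators of mitochondrial gene expression, 7 were higher (41.2%) and 1 lower in SNAI1-KO, beside 31.1% and 32.6% of all genes tested, and 8 were higher and 2 lower without WT-2. PPARGC1B, a coactivator of mitochondrial genes, was at 0.287, 0.589 and 0.331 FPKM in WT, 3.70, 3.82 and 4.06 FPKM in CS16 and 2.11, 2.15 and 1.92 FPKM in CS19, a rise of 2.88 ± 0.36 (adjusted p = 3e-05). GABPA rose by 1.17 ± 0.26 (adjusted p = 0.00181), with the overlap with ATP5PF given above, and YY1 by 0.56 ± 0.13. GABPA was at 10.5, 4.55 and 11.5 FPKM in WT, so WT-2 was the lowest, and at 17.6 to 22.3 FPKM in SNAI1-KO. NRF1 lay between 7.13 and 9.05 FPKM in WT and between 6.32 and 6.95 FPKM in SNAI1-KO, with a difference of -0.23 ± 0.13 (adjusted p = 0.146). ESRRA, a nuclear receptor of the same program, fell by 1.04 ± 0.23 (adjusted p = 0.00222), and by 0.71 without WT-2. It was at 10.9, 21.0 and 12.9 FPKM in WT. Among the 29 higher members with a promoter entry, 11 held the NRF1 motif, 8 the GABPA motif and 5 the YY1 motif, and among the other 39 members these were 12, 13 and 7.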

How the data were processed

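RNA of 9 libraries labelled as MDA-MB-231 was sequenced as paired ends after ribosomal depletion with a stranded total RNA kit. Per the labels and the study's methods, the authors trimmed reads with Trimmomatic 0.36, aligned them with STAR 2.7.2b to GRCh38.p13 and deposited raw counts of read pairs per gene from featureCounts (Subread 2.0.0, gencode 38, mapping quality of at least 30, no strand), so genes that overlap or have close copies can lose or share reads. Of 60708 genes, 60507 had a symbol, and 0 columns of per-sample values were left out. Totals were 19527195 to 28627777 counts, at which 3 counts are 0.105 to 0.154 CPM.

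Members and lists were chosen with earlier results of these data known. Each of 4 comparisons (SNAI1-KO against WT, CS16 against WT, CS19 against WT, CS16 against CS19) was fitted over all genes with edgeR 4.0.16 (filterByExpr, TMM, quasi-likelihood test, R 4.3.3) with Benjamini-Hochberg adjustment and a threshold of 0.05. SNAI1-KO against WT treats the 6 libraries of both clones as 1 group. FPKM are TMM-scaled CPM per kilobase of annotated exon. Named by rule were the 10 members with the largest change among those past the threshold whose groups did not overlap, the isoforms of complex IV and of subunit c, the 5 with the smallest adjusted p between the clones, the highest of each complex, those failing the filter, those sharing most of their exons and the genes of the lists. NDUFA13, NDUFV2, SDHA and the further subunits given for their role were named after their values were seen. On simulated counts edgeR recovered 200 of 200 changed genes in each comparison, with 9, 7, 15 and 13 false calls. For SNAI1-KO against WT these 200 were among 19631 genes, while 31.1% were called higher and 32.6% lower in the data. Recovery with that many genes changed was not tested, and no recovery by size of change is given. The planted changes were of a single size in either direction, larger than the members' median log2 change of 0.54. They were placed in genes above a minimum mean count. All simulated libraries had the same spread, while WT-2 differed from the other WT libraries in the data. Recovery of changes as small as most of the members' was thus not tested. Alternatives were DESeq2 1.42.0, other scalings and filters, a fit shared by all libraries, a replicate block, each library left out and, chosen after seeing the data, offsets for GC content. Libraries of the same number did not deviate together (r from -0.39 to 0.33). Figures were drawn with matplotlib 3.10.9. One member is counted in the totals but not reported here by itself.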

Additional observations from a re-analysis of the deposited data

Results flagged for a closer look

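ATP5MC3 reached 83.1 FPKM in CS16-2, apart from the other 5 SNAI1-KO libraries at 62.7 to 68.8 FPKM by Dixon's criterion, which chance meets in about 1 in 20 groups.

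The change from WT differed between CS16 and CS19 for 17 of the named members, by edgeR's adjusted p for CS16 against CS19, and the level was higher in CS16 in each. NDUFS6, NDUFV3, NDUFS4, SDHB and NDUFA5 were named by this same adjusted p, so they pass by choice. Of all genes tested, 14.7% were higher in CS16. With the spread shared with the WT libraries, 2 of 79 members were higher, beside 1.62% of all genes tested. NDUFS4 and SDHA were lower than in WT, and less so in CS16. In complex I the log2 differences were 0.83 for NDUFS6, 0.61 for NDUFS4, 0.53 for NDUFV3, 0.43 for NDUFA5, 0.36 for NDUFB10 and 0.32 for NDUFS5. In complex II they were 0.46 for SDHB and 0.42 for SDHA, and in complex III 0.35 for UQCRC2 and 0.29 for UQCRH. In complex IV they were 0.53 for COX5A, 0.29 for COX7B, 0.23 for COX6B1 and 0.20 for COX4I1. In complex V they were 0.38 for ATP5F1B, 0.33 for ATP5PO and 0.21 for ATP5MJ.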

How the results depend on the processing

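In SNAI1-KO against WT, leaving out 1 library gave 29 to 45 higher and 5 to 10 lower members, the 10 coming without WT-2. Of all genes tested, 28.7% to 34.0% were higher and 31.2% to 33.2% lower in these fits. Lower members numbered 3 with library size alone, beside 27.8% of all genes tested. At a log2 cut-off of 1 instead of 2, 20 members were called, and 1 at the cut-off of 2 without WT-2. The share of all genes was not counted at either, so these counts are not a result about the members. In CS16 against WT, leave-one-out gave 12 to 48 higher and 2 to 9 lower, beside 20.02% to 36.4% and 22.5% to 36.3% of all genes tested. The shared fit gave 5 lower, beside 31.4%. In CS19 against WT, leave-one-out gave 6 to 40 higher and 1 to 15 lower, beside 20.04% to 36.4% and 20.8% to 34.8%. Library size alone gave 27 higher there, beside 31.2%, and GC offsets 25 higher, beside 30.8%. The shared fit gave 26 higher and 5 lower, beside 29.3% and 30.2%. In CS16 against CS19, leave-one-out gave 19 to 32 higher and 0 to 3 lower, beside 10.4% to 15.2% and 8.81% to 13.3% of all genes tested. Library size alone gave 19 higher, beside 9.40% of all genes. The shared fit gave 2 higher, beside 1.62%, and no filter 1 lower, beside 6.03%. The cause was not tested for any of these. With library size alone the median of all genes moved to 0.19 in SNAI1-KO against WT, 0.21 in CS19 against WT and -0.13 in CS16 against CS19. A replicate block, for numbers that do not pair the libraries, gave 34 higher and 5 lower in SNAI1-KO against WT, beside 30.2% and 30.2% of all genes tested. It gave 21 and 2 in CS16 against WT, beside 23.6% and 23.7%, and 23 and 4 in CS19 against WT, beside 25.2% and 24.3%. In CS16 against CS19 it gave 21 higher, beside 9.71%. Of single values of named members and sums, 768 stayed on their side of the threshold, 23 gained a call, 11 lost one and 2 moved, and none reversed.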

Other observations

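The tricarboxylic acid cycle feeds NADH and succinate to the chain, and of its 16 genes 10 were higher and 1 was lower in SNAI1-KO against WT, beside 31.1% and 32.6% of all genes tested, with a median log2 fold change of 0.59. Without WT-2, 11 were higher and 2 lower, beside 34.0% and 33.2% of all genes tested. SUCLG1, a subunit of succinyl-CoA ligase, rose by 1.24 ± 0.24 (edgeR, adjusted p = 0.00074), and IDH3A, the catalytic subunit of NAD-dependent isocitrate dehydrogenase, by 0.99 ± 0.23 (adjusted p = 0.00243). Without WT-2 the largest rise in the list was 0.97. OGDH, a component of the 2-oxoglutarate dehydrogenase complex, fell by 1.91 ± 0.25 (adjusted p = 3.87e-05), and by 1.46 without WT-2. It was at 29.9, 65.6 and 32.4 FPKM in WT and 8.65 to 14.1 FPKM in SNAI1-KO.

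Libraries of 1 clone differed little for most members, with a median ratio of the highest to the lowest library of 1.24 in CS16 and 1.18 in CS19. In 7 members the ratio was over 1.5 in both clones. It was 3.34 in CS16 and 2.75 in CS19 for NDUFA11, 2.47 and 2.46 for ATP5ME, 2.12 and 1.71 for SDHC, and 2.28 and 1.69 for COX8A, with CS16-2, CS19-1 and CS19-3 above the other 3 libraries in these 4 genes, and 1.70 and 2.15 for ATP5MF, with the same 3 libraries below the others.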
